A study of Rattus norvegicus with 6 samples.

Results

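Astrocytes were followed in rat hippocampal RNA through 8 of their genes other than Gfap, namely Aqp4, Gja1, Glul, Aldoc, Aldh1l1, S100b, Sparcl1 and Vim. A probe was taken when its gene name on the array, without the suffix for a predicted or mapped gene, was 1 of these 8 names and the probe was not a control feature. This gave 10 probes for 7 of the 8 genes, out of 41012 probes under 35561 names. No probe carried the name Aldh1l1. A probe named Fthfd, the older name of that gene, was reached through its RefSeq accession and is given after the others without entering the counts.

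Astrocytes clear glutamate and potassium from around synapses, pass ions and metabolites to each other through gap junctions, and supply neurons with glutamine and with products of glycolysis. In the dentate gyrus, part of the hippocampus, cells with astrocyte features also line the niche in which new neurons are born. Astrocytes that react to injury or inflammation build up the intermediate filaments GFAP and vimentin, whereas the genes of transport and metabolism mark astrocytes also at rest.

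The rats were male Wistar, 11 weeks old at the start, and the labels name no transgene or drug. Sedentary controls (CONT) stayed at rest on a treadmill, while mild exercise (ME) rats ran at 15 m/min, below the lactate threshold, and intense exercise (IE) rats at 40 m/min, above it. Sessions lasted 60 min and were held 5 times a week over 6 weeks. Running was first taught with slight foot shocks in both exercise groups, for more weeks in IE than in ME. Some IE rats were given further shocks later, and IE rats that refused to run were excluded. Speed, shocks and this selection of runners cannot be told apart in IE. The labels place tissue collection at 24 or 36 h after the last session and the study's methods at 2 days. RNA from the hippocampi of 5 rats per group was mixed, so each group is 1 pool, and no test across rats was possible. In RNA of whole hippocampus, fewer astrocytes and less RNA per astrocyte cannot be told apart.

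ME was compared with CONT, IE with CONT, and IE with ME directly, each on 2 arrays with the dyes swapped, and values "with ME" or "with IE" are those against CONT. Array 1 carried the first-named pool in Cy5 and array 2 carried it in Cy3. Ratios are given as log2 of the first-named pool over the other, as the mean of the 2 arrays ± the SD between them, which covers error of labeling and hybridization but not the spread between rats. Signals are processed signals on a linear scale, after background subtraction and dye normalization by the scanner software, and they are compared only within a probe and a slide. The 4 arrays against CONT shared 1 slide, and the direct comparison was made on another. Saturated spots numbered 0 on every array, and by the software's test 66.5% to 74.4% of an array's spots stood well above background in Cy3 and Cy5 alike. To be called, a probe needed a Cy5/Cy3 of 1.5 or more on 1 array, of 0.75 or less on its dye swap, and a software p below 0.01 on each. The tissue label was checked with markers of hippocampal neurons. Of their probes, 7 of 7 were well above background against CONT and 6 of 7 on the IE vs ME slide. Most spots of each array passed the same mark, so these counts say little about the tissue.

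All the probes found are 60-mers. The Vim and Sparcl1 probes, each printed as 1 spot, are shown because Vim had the largest ratio among the member probes well above background and Sparcl1 is a member that stayed near 0. They lie on the plus strand of rn3, at chr17:87862223-87862282 for Vim and chr14:6791986-6792045 for Sparcl1. No part of them is set in capitals, and their letters are those of the array design, 5′ to 3′.
Vim: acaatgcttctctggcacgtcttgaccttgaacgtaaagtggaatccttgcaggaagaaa
Sparcl1: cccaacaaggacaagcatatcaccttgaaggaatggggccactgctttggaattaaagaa
Read from base 1, neither probe holds a stop codon, and the Vim probe holds none read from base 3 either. Which of these frames is the coding one is not stated. No exon annotation of rn3 was at hand, so the exon or UTR under a probe is not stated.

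For some members the gene behind a probe is less certain. Of 3 probes named Glul, A_44_P1030714 is placed on chromosome 12 of rn3, whereas RefSeq has Glul on chromosome 13 of GRCr8, and the other two (A_44_P381069 and A_44_P458704) carry no position in the array files. The Aldoc probe lies on the minus strand of chromosome 10 in rn3, while RefSeq has Aldoc on the plus strand in GRCr8. Over the array, 95.7% of 9791 probes placed on their gene's chromosome lay on the gene's strand. Whether these 2 probes read Glul and Aldoc was not tested. The probes of Aqp4, S100b and Gja1 (A_44_P393551) were printed as 10 spots each, and all others as 1 spot.

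Across the 3 comparisons, the genes of water transport, gap junctions, glutamine synthesis, glycolysis, calcium binding and matrix had ratios close to 0, and among the member probes well above background only that of Vim had a mean ratio beyond 0.1 on the log2 scale in any comparison. No member probe was called in any of them. The count was 0 of 10 probes with ME, where 0.122% of all probes were called, 0 of 10 with IE, where 0.0293% were, and 0 of 10 in the direct comparison, where 0.0731% were. With shares that low in all probes, a count of 0 among 10 says little about these genes. With the p threshold left out, the counts were also 0. Of the 10 probes, 9 stood well above background in all readings, with a median ratio of -0.0079 with ME, -0.019 with IE and 0.0096 for IE over ME. The medians over all probes well above background were -0.0025, 0.0018 and 0.0028.

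**Figure D1:**
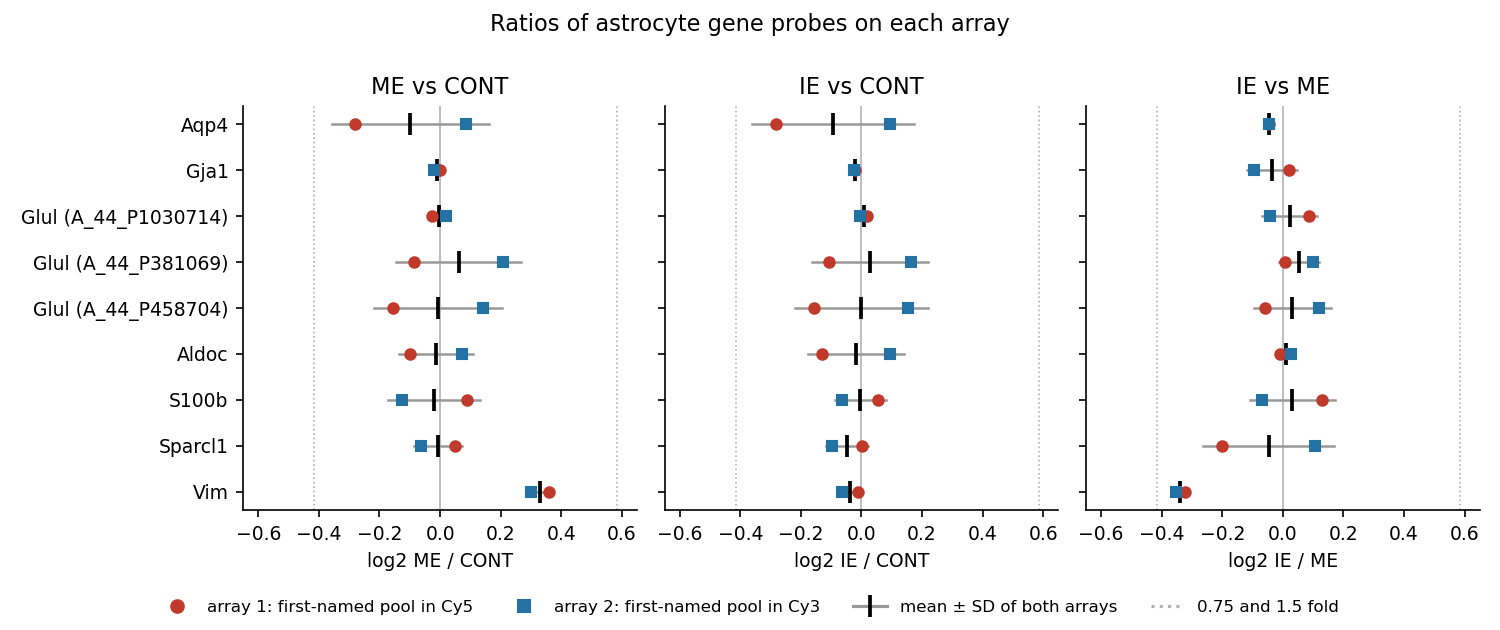
Log2 ratio of the first-named over the second pool for the 9 member probes well above background, on each array (circle, first-named pool in Cy5; square, first-named pool in Cy3), with the mean ± SD of both arrays and dotted lines at 0.75 and 1.5 fold. Vim sits at 0.33 with ME and at -0.34 for IE over ME with its symbols close together, and the other probes have means between -0.098 and 0.061 in the 3 comparisons.

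Aqp4 encodes aquaporin-4, the water channel of the astrocyte endfeet on blood vessels. Its probe was dim but well above background in each reading. Against CONT, the ME pool read 165 with CONT at 201 when ME was in Cy5, and 180 with CONT at 170 when ME was in Cy3. The IE pool read 152 with CONT at 185 in the first orientation, and 168 with CONT at 157 in the second. Thus the exercise pool was the lower in Cy5 and the higher in Cy3, with both intensities, and the readings of the 3 pools overlapped. The ratios were -0.098 ± 0.26 with ME and -0.094 ± 0.27 with IE, smaller than the SD between arrays. In the direct comparison, IE read 142 with ME at 147 on array 1, and 147 with ME at 151 on array 2. The ratio of -0.046 ± 0.0021 had the same sign on both arrays, with p of 0.743 and 0.752 from the software's error model. Single spots of the probe differed by an SD of 0.054 to 0.087 on the log2 scale within an array.

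Gja1 encodes connexin 43, the main gap junction protein of astrocytes. On its bright probe (A_44_P393551, chr20:35435826-35435885 of rn3), ME read 18554 and 17783 with CONT at 18569 and 18016 on arrays 1 and 2. IE read 17634 and 17145 with CONT at 17880 and 17418. The readings of ME and of IE each overlapped those of CONT, and the mean reading of a pool ran from 17389 in IE to 18169 in ME. The ratios were -0.0098 ± 0.012 with ME, -0.021 ± 0.0022 with IE and -0.037 ± 0.082 for IE over ME. For IE vs CONT, both arrays were just below 0, at -0.020 and -0.023, with p of 0.950 and 0.868. The other Gja1 probe (A_44_P278604, chr20:35435621-35435680) was not well above background in any reading, with signals of 1.76 to 19.0, and no difference between pools is given from it. On the IE vs ME arrays its p was 0.00772 and 0.00193, but Cy3 was the brighter dye on both, whichever pool it labeled.

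Glul encodes glutamine synthetase, which turns glutamate taken up by astrocytes into glutamine. On A_44_P381069, ME read 9749 and 11144 with CONT at 10339 and 9653, and IE read 9672 and 10154 with CONT at 10419 and 9067. The Cy3 reading was the higher on each of these arrays, and the pools overlapped. The ratios were 0.061 ± 0.21 with ME, 0.028 ± 0.19 with IE and 0.052 ± 0.066 for IE over ME. The second probe without a position, A_44_P458704, had -0.0075 ± 0.21, -0.00028 ± 0.22 and 0.031 ± 0.13 in the same order. The probe placed on chromosome 12, A_44_P1030714, had -0.0035 ± 0.033, 0.0076 ± 0.015 and 0.022 ± 0.091. In each comparison the 3 probes named Glul lay within their SDs of each other and of 0, so no difference in glutamine synthetase was detectable between the pools.

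Aldoc encodes aldolase C, the brain form of a glycolytic enzyme. ME read 18359 and 19357 with CONT at 19674 and 18395, and IE read 18489 and 18556 with CONT at 20237 and 17397. The pools overlapped, and the ratios were -0.013 ± 0.12 with ME, -0.019 ± 0.16 with IE and 0.0096 ± 0.025 for IE over ME. A probe for the transcript BM986434 overlaps it by 46 bases on the opposite strand, the strand on which RefSeq has Aldoc. Its ratios were 0.026 ± 0.0012, 0.068 ± 0.031 and -0.077 ± 0.096, and it was not called in any comparison either. Aldh1l1 encodes a folate enzyme widely used as a marker of astrocytes. The Fthfd probe had -0.0056 ± 0.22 with ME, 0.026 ± 0.25 with IE and 0.013 ± 0.20 for IE over ME, and its array 1 was above 0 and its array 2 below 0 in each comparison.

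S100b encodes a calcium-binding protein of astrocytes that is also secreted. ME read 1893 and 1764 with CONT at 1780 and 1925, and IE read 1910 and 1768 with CONT at 1839 and 1849. On each array the pool in Cy5 read higher than the pool in Cy3. The ratios were -0.019 ± 0.15 with ME, -0.0045 ± 0.084 with IE and 0.031 ± 0.14 for IE over ME, so no difference was larger than the SD between arrays. Sparcl1 encodes hevin, a matrix protein that astrocytes secrete at forming synapses. ME read 71621 and 62878 with CONT at 69267 and 65729, and IE read 65438 and 60401 with CONT at 65322 and 64595. The pools overlapped here too, and the ratios were -0.0079 ± 0.079 with ME, -0.047 ± 0.070 with IE and -0.047 ± 0.22 for IE over ME.

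**Figure D2:**
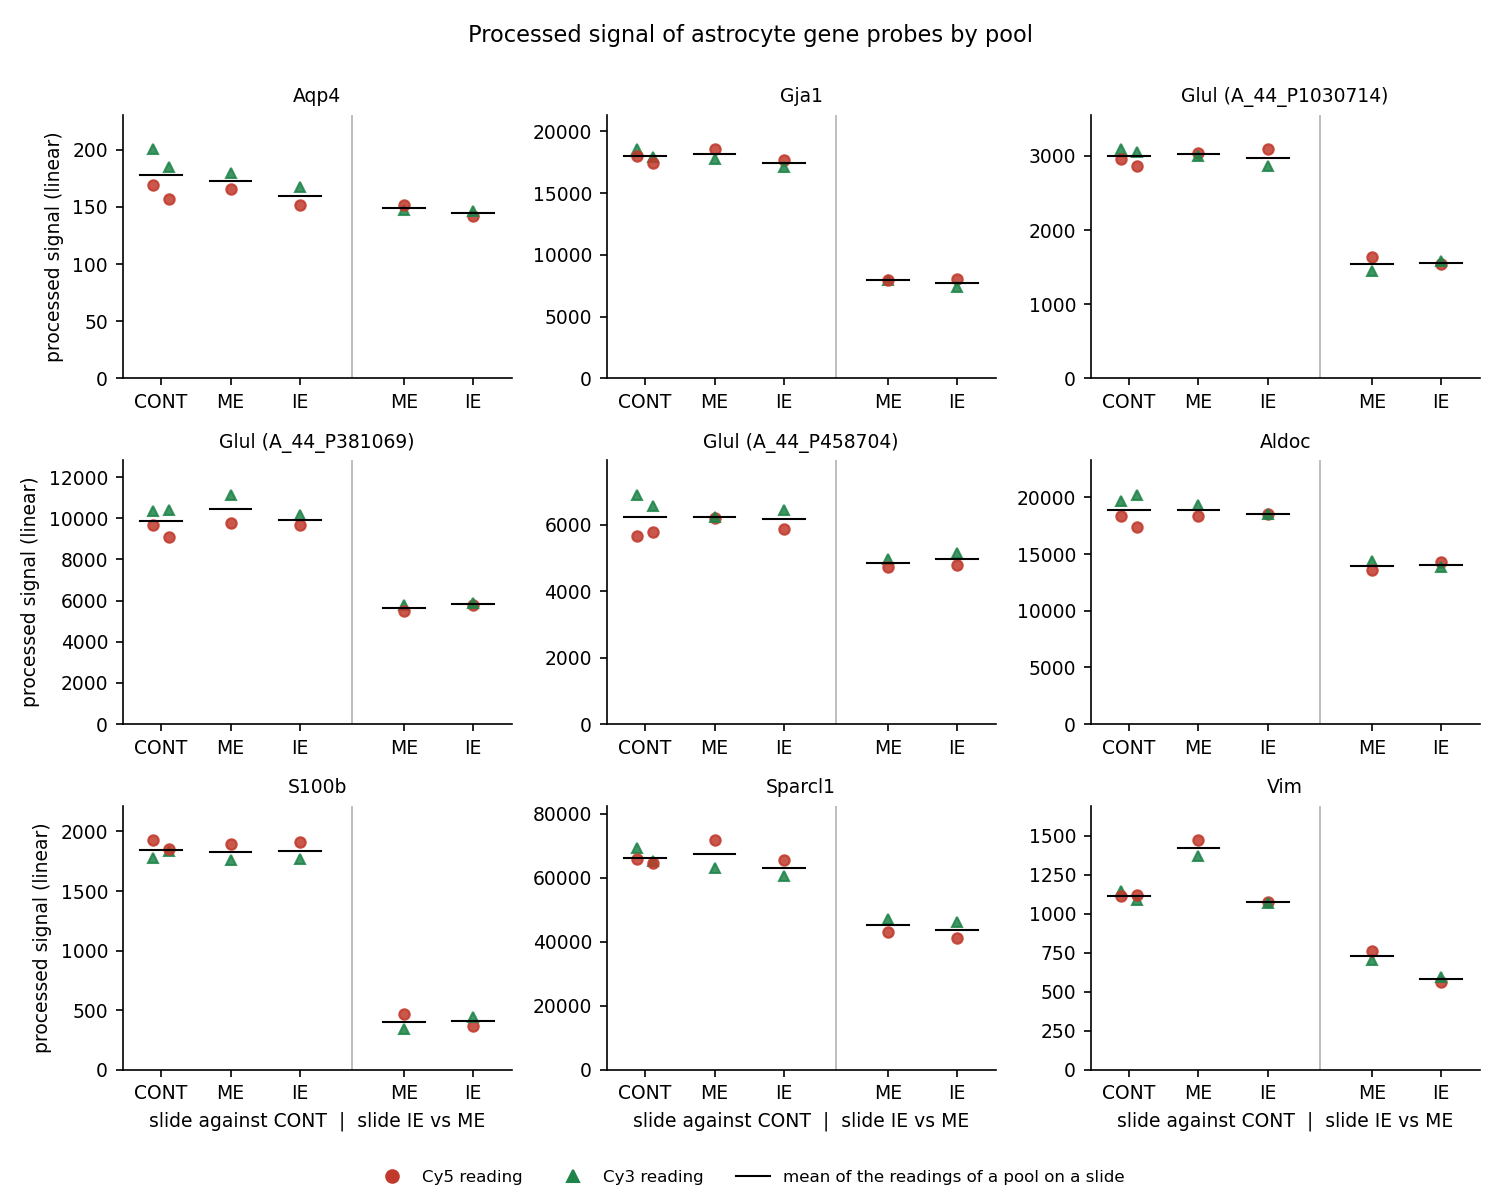
Processed signal (linear scale, from 0) of the 9 member probes in each reading (circle, Cy5; triangle, Cy3) of the CONT, ME and IE pools on the slide against CONT and of the ME and IE pools on the IE vs ME slide, with bars at the mean of a pool's readings. Vim reads 1371 to 1469 in ME against 1085 to 1145 in CONT and 1071 to 1076 in IE, while for the other probes the readings of ME and of IE overlap those of CONT; the slides were scanned separately, so levels are not compared between them.

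Vim encodes vimentin, the intermediate filament that astrocytes share with endothelial, ependymal and meningeal cells. On the ME vs CONT arrays, ME read 1469 with CONT at 1145 when ME was in Cy5, and 1371 with CONT at 1114 when ME was in Cy3. ME was thus the higher pool with either dye, and the ratio was 0.33 ± 0.042, or 1.26 fold. On the IE vs CONT arrays, IE read 1076 with CONT at 1085, and 1071 with CONT at 1119, which gave a ratio of -0.038 ± 0.036. In the direct comparison on the other slide, IE read 563 with ME at 705, and 593 with ME at 758, and the ratio was -0.34 ± 0.022, or 0.791 fold. The order of the pools against CONT was ME, CONT and IE, and IE and CONT differed by about the SD between arrays. The software's p for a difference between 2 pools on 1 array was 0.0817 and 0.145 with ME, 0.952 and 0.754 with IE, and 0.117 and 0.0873 for IE over ME, so Vim passed neither the p threshold nor the fold range on any array. The ratio of ME vs CONT was exceeded by 302 of 28896 probes well above background (1.05%), and 171 of 25803 (0.663%) had a lower ratio for IE over ME. The IE vs ME difference taken from the arrays against CONT was -0.37, beside -0.34 measured directly; both come from the same ME and IE pools, so the direct arrays repeat the measurement and not the experiment.

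The direction of the members on the 2 arrays of a dye swap was set against that of all probes well above background. For ME vs CONT, 1 of 9 probes (Vim) was above 0 on both arrays, as were 13.6% of all probes, and 1 of 9 was below 0 on both, as were 15.0%. For IE vs CONT, 0 of 9 were above 0 on both arrays against 14.6%, and 2 of 9 (Gja1 and Vim) were below 0 on both against 13.6%. For IE vs ME, 1 of 9 was above 0 on both against 14.5%, and 2 of 9 (Aqp4 and Vim) were below 0 on both against 12.1%. These shares are near those of all probes. For 7, 7 and 6 of the 9 probes the sign changed with the dye. The dye component, the mean log2 Cy5/Cy3 of a swapped pair, was -0.18 for Aqp4, -0.15 for Glul (A_44_P458704) and 0.11 for S100b with ME, and -0.19, -0.15 and 0.060 with IE, beside medians of -0.0095 and -0.011 over all probes. For Vim it was 0.030 and 0.026.

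**Figure D3:**
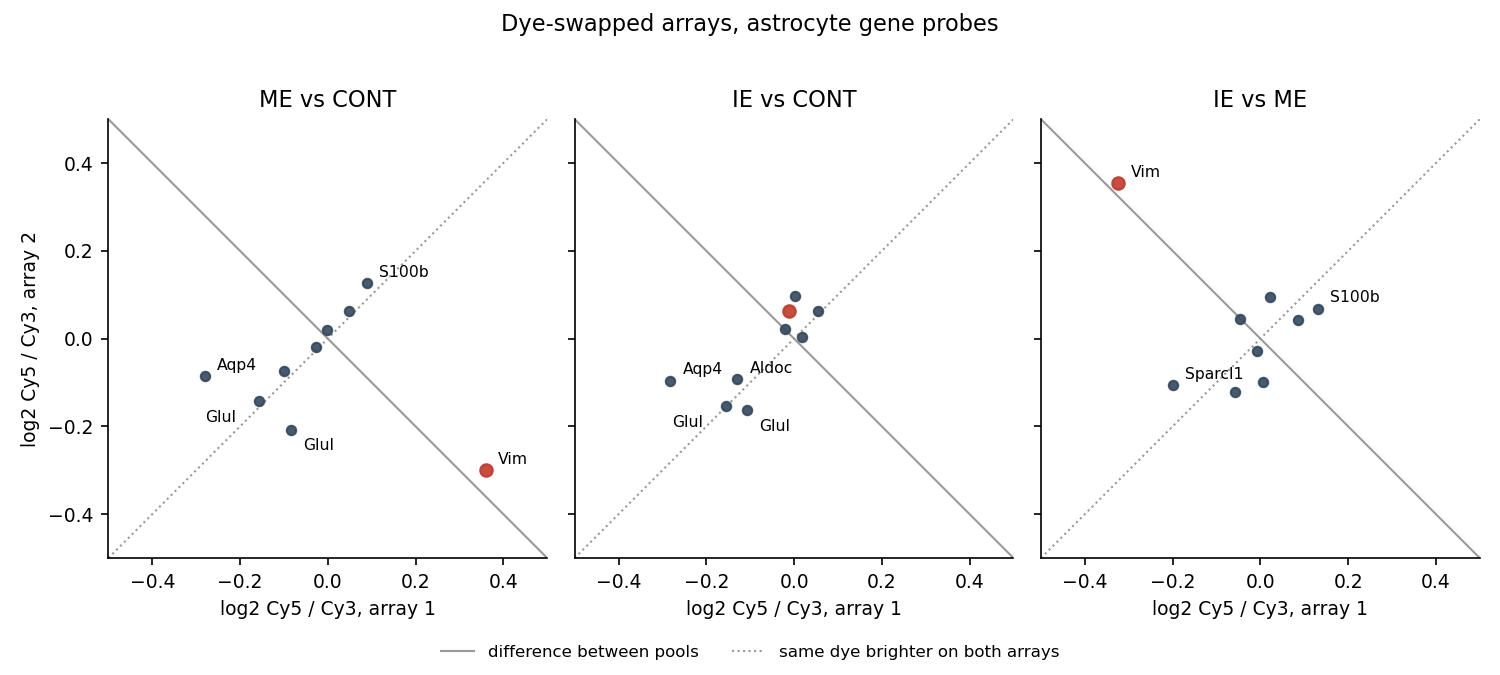
Log2 Cy5/Cy3 of the 9 member probes on array 2 against array 1 of each dye swap; a difference between pools moves a point along the solid line and a dye effect along the dotted line. Vim (red) lies close to the solid line with ME and IE vs ME, and Aqp4, Glul and S100b lie along the dotted line with ME, with dye components of -0.18, -0.15 and 0.11.

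Further astrocyte genes were read from 5 lists of 58 genes, of which 53 were on the array with 83 probes. None of the 83 probes was called in any comparison, nor with the p threshold left out, beside the shares of all probes given above. Against CONT 77 of the 83 probes were well above background, with medians of 0.00023 with ME and 0.00065 with IE, and for IE over ME 73 were, with a median of 0.0021. The 16 probes of the transport list, which holds the glutamate transporters Slc1a2 and Slc1a3 and the potassium channel Kcnj10, had medians of 0.0036 with ME, 0.0061 with IE and 0.023 in the direct comparison. The highest ratio with ME was that of the connexin gene Gjb6 (0.13 ± 0.12) and the lowest that of the membrane protein gene Mlc1 (-0.070 ± 0.21). With IE the lowest was that of Slc1a2 (-0.041 ± 0.26). The ratio of Gjb6 was about as large as its SD between arrays, and those of Mlc1 and Slc1a2 were smaller than theirs.

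The metabolism list had 15 probes well above background and medians of -0.012, -0.043 and 0.012 in the same order. Its highest ratios were those of Gldc, of the glycine cleavage system, with ME (0.12 ± 0.18), and of Dio2, the enzyme that activates thyroid hormone, with IE (0.031 ± 0.016 on A_44_P557168). The other two Dio2 probes had -0.056 ± 0.20 and -0.062 ± 0.13 with IE, so the probes of Dio2 disagreed in sign. Its lowest were those of Cbs, of the synthesis of cystathionine, with ME (-0.068 ± 0.077) and of Gldc with IE (-0.087 ± 0.015). A second Gldc probe had 0.062 ± 0.10 with ME and 0.0013 ± 0.15 with IE. In the secreted list, with 11 probes well above background and medians of -0.021, -0.019 and 0.0021, the lowest ratio was that of the matrix gene Sparc, at -0.077 ± 0.0043 with ME and -0.16 ± 0.0059 with IE. Both arrays of Sparc were below 0 in both comparisons, with p of 0.420 and 0.444 with IE, and its direct IE vs ME ratio was 0.050 ± 0.0012. The lipid carrier gene Apoe had -0.034 ± 0.44 with ME, -0.15 ± 0.53 with IE and -0.061 ± 0.18 for IE over ME, with Cy5 brighter on both arrays of each comparison. In the list of receptors and transcription factors, with medians of -0.0073, 0.0060 and 0.0026, the range was -0.083 to 0.089 with ME, ending at Daam2 and 1 of 4 Sox9 probes, and -0.11 to 0.10 with IE, ending at Ednrb and the same Sox9 probe.

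The list of reactive astrocyte genes had a median of 0.12 with ME over 17 probes well above background, against 0.0046 with IE over 17 and -0.019 for IE over ME over the 14 that were well above background there. With ME, 8 of the 17 probes were above 0 on both arrays and 0 were below 0 on both, where 13.6% and 15.0% of all probes were. Of the 8, 3 belong to Cp, which encodes ceruloplasmin, a copper-carrying oxidase of iron that is also made by meninges and choroid plexus. With ME, the ratios of these Cp probes were 0.64 ± 0.21, 0.62 ± 0.36 and 0.45 ± 0.039. With IE, the same probes gave 0.11 ± 0.59, -0.052 ± 0.043 and -0.034 ± 0.32. For IE over ME, only the probe with 0.62 was well above background in all readings. Its arrays split there, at -1.05 and 0.043 (-0.50 ± 0.77). A further Cp probe had 0.058 ± 0.23 with ME, with 2 of its 4 readings well above background. Serping1, the inhibitor of complement C1, had 0.33 ± 0.11 with ME on 1 probe and 0.084 ± 0.0038 on the other. For IE over ME the same Serping1 probes differed in sign, at -0.30 ± 0.064 and 0.059 ± 0.13. Timp1, an inhibitor of matrix proteases, had 0.21 ± 0.22 with ME and -0.30 ± 0.11 for IE over ME. Beside these Cp, Serping1 and Timp1 probes, the 8 held Serpina3n (0.16 ± 0.18 with ME) and Cd44 (A_43_P11621, 0.12 ± 0.13 with ME). With IE, Cd44 was again above 0 on both arrays (0.12 ± 0.070), while Serpina3n had -0.10 ± 0.024. For IE over ME, Cd44 had -0.15 ± 0.057, and the arrays of Serpina3n split, at -0.30 and 0.34. Gfap itself had -0.041 ± 0.64 with ME and -0.068 ± 0.67 with IE, with Cy3 brighter on both arrays of each comparison. Nes, the intermediate filament nestin, had the lowest ratio of the list with ME (-0.073 ± 0.34), and Cxcl10, an interferon-induced chemokine, had 0.37 ± 0.77.

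**Figure D4:**
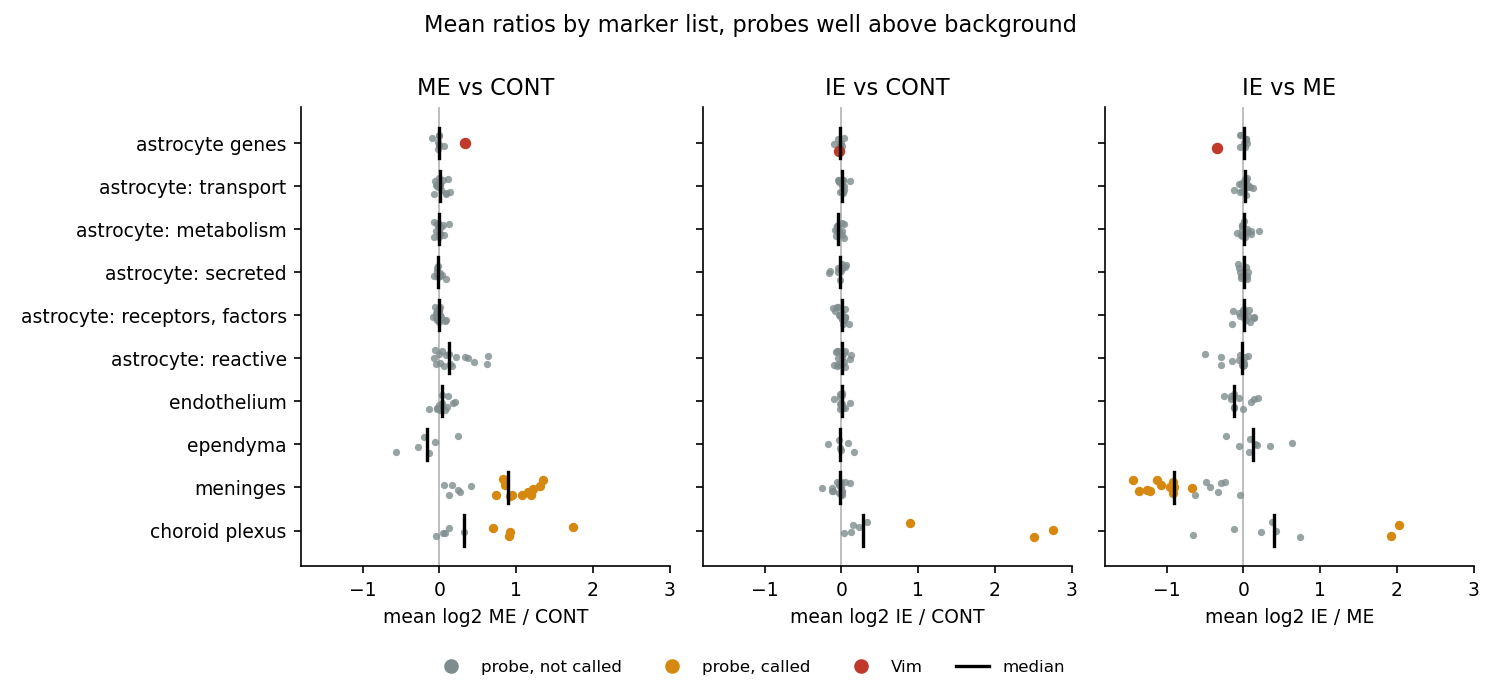
Mean log2 ratio of each probe well above background in all readings of a comparison, by marker list (rows) and comparison (panels), with called probes in orange, Vim in red and bars at the medians. The astrocyte lists of transport, metabolism, secreted proteins, and receptors and factors have medians between -0.043 and 0.023, the reactive list has 0.12 with ME, and the meninges list has 0.89 with ME and -0.91 for IE over ME.

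Because Vim is shared with other cell types, their markers are given beside it. The marker lists were chosen with earlier results of these data known, so counts from them are a description and not a test. Of 18 probes of meningeal markers, 12 were called up with ME, 0 were called with IE, and 11 were called down for IE over ME, beside the 0.122%, 0.0293% and 0.0731% of all probes called in either direction. Their summed signal was 48264 to 50775 in the ME readings, 23708 to 24913 in CONT and 23278 to 23441 in IE, so the ME readings lay above both other pools and none of the 18 probes was below background. On the IE vs ME slide it was 43718 to 51217 in ME and 20872 to 21424 in IE. The largest ratios with ME were those of Ptgds, a prostaglandin synthase (1.34 ± 0.083), Ogn, the proteoglycan osteoglycin (1.31 ± 0.14), and Col1a2, a chain of type I collagen (1.21 ± 0.051), and each ran the other way for IE over ME (-1.44 ± 0.19, -1.35 ± 0.15 and -1.21 ± 0.0068). The other called meningeal genes were Fmod, Igf2, Crabp2, Col3a1, Col1a1 and Slc6a13 in both comparisons, and Aldh1a2 with ME. Col1a1 was called on 1 probe, while its other probes had 0.24 ± 0.098 and 0.13 ± 0.071 with ME. The summed signal of the endothelial markers was 11916 to 12475 in ME, 11214 to 12244 in CONT and 11002 to 11897 in IE, with 0 of 17 probes called in any comparison. On the IE vs ME slide the endothelial sum was 5340.0 to 5385 in ME and 4845 to 5161 in IE. The median of 11 endothelial probes well above background was -0.12 for IE over ME. Of these, 4 were below 0 on both arrays and 1 was above, and the rest changed sign with the dye. Against CONT the endothelial median over 13 probes was 0.031 with ME and 0.0016 with IE. The sum of the ependymal markers was 2611 to 2784 in ME, 2916 to 3045 in CONT and 2975 to 3127 in IE, lowest in ME there and on the other slide (1435 to 1457, against 1600.4 to 1654 in IE), with 0 of 9 called. Choroid plexus markers had 4 of 15 probes called up with ME (Sostdc1, Ttr, Kcnj13 and Igfbp2), 4 with IE (Sostdc1, Ttr, Kcnj13 and Otx2) and 2 in the direct comparison (Sostdc1 and Ttr), and their sum was highest in IE (6779 to 7658, against 3837 to 4311 in ME and 3010 to 3904 in CONT). With IE, 3 of the 4 Kcnj13 readings were well above background. For IE over ME, 6 of 8 choroid plexus probes well above background were above 0 on both arrays. There 1 was below, Igfbp2 (-0.65 ± 0.12, not called), and Kcnj13 split, at 0.17 and -0.42. The summed signal of the 10 member probes was 123725 to 131035 in ME, 120246 to 130968 in CONT and 118556 to 123336 in IE, so that ME and IE each overlapped CONT while ME lay just above IE. A large part of this sum is Sparcl1, which alone read 60401 to 71621 on these arrays. On the IE vs ME slide the sum was 77692 to 82849.8 in ME and 76580 to 81289.5 in IE, which overlap. The part of meningeal or endothelial tissue in the Vim, Cp, Serping1 and Timp1 values was not tested.

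Neuronal markers had 0 of 15 probes called in each comparison and, over the probes well above background, medians of -0.041, -0.033 and -0.00019, oligodendrocyte markers 0 of 15 and medians of 0.014, 0.043 and 0.064, and microglial markers 0 of 14 and medians of -0.0020, 0.0016 and -0.0031. The cerebellar markers had 7 dim probes, with a summed signal of 672 to 707 in ME, 534 to 599.6 in CONT and 556 to 605 in IE, and of 584 to 710.4 in ME and 495 to 510.2 in IE on the IE vs ME slide. Thus ME read above the other pools on both slides. Over the probes well above background their median was 0.33 with ME (4 probes, 3 of them above 0 on both arrays), 0.020 with IE and -0.38 for IE over ME (3 probes each). With IE the arrays split for all 3 probes, and for IE over ME 1 of the 3 was below 0 on both arrays. The median of -0.38 is the ratio of Car8, whose arrays split, at -1.06 and 0.30. Gabra6, a GABA receptor subunit of granule cells, was called up with ME, but 2 of its 4 readings were not well above background and its ratio is not given. The part of cerebellar tissue in the Vim values was not tested.

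The probes whose ratios over the 6 arrays lay nearest to those of Vim, among 24716 well above background in all readings, were Thbd, thrombomodulin of endothelium (Euclidean distance 0.146 on the log2 scale), Bgn, the matrix proteoglycan biglycan (0.149), LOC679942 (0.178), Arc, an immediate early gene of neurons (0.182), and Myl9_predicted, a myosin light chain of smooth muscle (0.189). Bgn is 1 of the meningeal markers above. For Thbd the ratios were 0.28 with ME, -0.0043 with IE and -0.29 for IE over ME, and for Bgn they were 0.27, -0.018 and -0.29, the same order of size as the 0.33, -0.038 and -0.34 of Vim. Those nearest to Aqp4, the other member with a ratio near 0.1, were Htr1a (0.0845), Mapk9 (0.0860), CB547678 (0.0938), LOC500282 (0.0978) and Ryr2 (0.103). The Aqp4 pattern is mostly a dye component, so these distances describe like dye behaviour as much as like ratios.

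**Figure D5:**
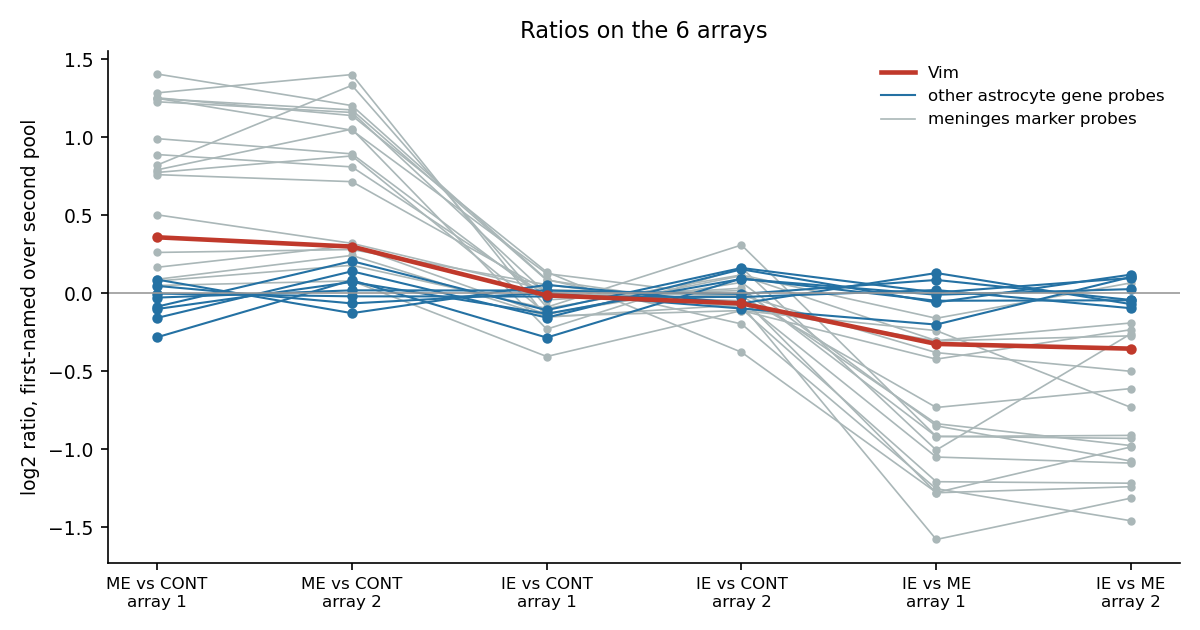
Log2 ratio of the first-named over the second pool on the 6 arrays for Vim (red), the other 8 member probes well above background (blue) and 18 probes of meningeal markers (grey); lines join the values of 1 probe. Vim is above 0 on both ME vs CONT arrays, as are 18 of 18 meningeal probes and 13.6% of all probes well above background. It is below 0 on both IE vs ME arrays, as are 17 of 18 meningeal probes and 12.1% of all. On both IE vs CONT arrays it is also below 0, as are 4 of 18 meningeal probes and 13.6% of all. The meningeal list was chosen with earlier results of these data known. The other member probes stay between -0.28 and 0.21.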

How the data were processed

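The authors hybridized 3 pools of hippocampal RNA (CONT, ME and IE, 5 rats each) on 6 Agilent 2-colour arrays as 3 dye swaps. The sample records call the swapped arrays pools 1 and 2, while the paper has a common pool for each group, as was assumed here. The authors extracted the spots with Feature Extraction, version 9.5.3.1 for the slide against CONT and 11.0.1.1 for the slide of IE vs ME. The deposited log ratio is the log10 of Cy5 over Cy3 after background subtraction and LOWESS normalization by the software, and was turned here to log2. The p-value deposited by the authors is that of the software's error model for 2 pools on 1 array. The deposited signals are intensity values on a linear scale. The authors' value table holds log10 ratios of the processed signals, and served as an alternative.

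Spots that the software marked as non-uniform or population outliers (92 to 302 of 43379 per array) were left out, spots of a probe were averaged, and the median p over spots was taken. Gene names come from the slide against CONT, since the other slide's files carry only probe names in the same order, and 10726 of 41012 probes also matched RefSeq (GRCr8) by accession. The call rule takes its fold range and p threshold from the paper, which sets the range for exercise over CONT; here it was set on Cy5/Cy3, so on the array with the first-named pool in Cy3 a rise needed a smaller fold and a fall a larger one. The members and all lists were chosen with earlier results of these data known. The genes open to naming beside the members were, for each astrocyte list, called genes and those with the 2 highest and 2 lowest mean ratios, called genes of other lists, and the 5 probes nearest to the 2 members of largest ratio, with values for the extremes. The rule names Serping1 and Timp1 for IE over ME only. Their other values, Cp, Cd44 and Serpina3n values beyond the extremes and BM986434 were added after they were seen. 1 further gene of the astrocyte lists that this rule names is not reported here. The number of arrays limits the precision. Alternatives were no p threshold, the mean ratio of a pair, outlier spots kept, only probes well above background, normexp (offset 50) or no background subtraction with loess (limma 3.58.1 in R 4.3.3), the authors' value table, each array alone, a joint limma fit of the 6 arrays, and naming by accession. The calling was tested on simulated data. Python 3.11.15, pandas 2.3.3 and numpy 2.4.6 were used.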

Additional observations from a re-analysis of the deposited data

Results flagged for a closer look

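Vim (A_42_P509365) was above CONT on both arrays with ME (0.36 and 0.30 on the log2 scale) and below CONT on both arrays with IE (-0.012 and -0.064), so the ratio with IE minus that with ME was -0.37. The difference was not tested across rats, since each group is 1 pool and both comparisons share the CONT pool. On the arrays that set IE against ME directly, the ratio was -0.32 and -0.35. Of 28105 probes well above background against CONT, 1239 (4.41%) also lay on opposite sides of 0 on both arrays of each comparison, and of the 9 member probes 1 did. The IE ratios of Vim are close to 0. As given above, 12 of 18 meningeal marker probes were called up with ME, beside 0.122% of all probes called in either direction. The part of meningeal tissue in the Vim values was not tested.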

How the results depend on the processing

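No paired analysis was possible because the groups hold 1 pool each, and the shared replicate numbers 1 and 2 mark the dye orientation. The slide could not be used as a block, since each comparison lies on 1 slide. The counts of called probes were 0 among the members and 0 among the astrocyte lists in the 3 comparisons, and they were 0 under each alternative that was run for them. Over 30 ratios, for the 9 member probes well above background and the Fthfd probe, the alternatives that kept both arrays moved a ratio by at most 0.078 on the log2 scale (Aqp4, with ME, under normexp and loess), and between 27 and 30 of the 30 kept their sign. With array 2 alone 17 of 30 kept their sign, and with array 1 alone 20 did, since the dye effect then does not cancel. Vim stayed between 0.30 and 0.36 with ME, between -0.064 and -0.012 with IE and between -0.35 and -0.31 for IE over ME under all 7 settings. The median of all probes moved by less than 0.01 with each scaling. Among the members the signal over background limits the dim Gja1 probe, whose ratio is not used. Of the 83 probes of the astrocyte lists, 77 against CONT and 73 for IE over ME were well above background, and medians rest on these, while summed signals include dimmer probes.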
